A study of Prunus sibirica with 6 samples.

Results

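The genes described here are those whose protein description in the deposited table names an enzyme of ethylene synthesis, an ethylene receptor or a factor called EIN (ethylene-insensitive), with genes that carry an AP2 domain left out. The rule matched 57 of 31889 genes of Prunus sibirica, the Siberian apricot. Their levels were compared between flowers of clone 338, which has strong frost resistance (the strong clone, 3 libraries), and flowers of clone 28, which has weak frost resistance (the weak clone, 3 libraries). All flowers were at blooming stage and had been through frost at -4 °C. Each group is a single clone, so that a difference is one between these clones, and no unfrosted flowers were analysed here. Nothing in the labels says whether the 3 libraries of each clone stem from different trees, and p-values therefore cover only the spread among these libraries, which may be technical.

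Ethylene is a gaseous plant hormone that acts in senescence, abscission, fruit ripening and responses to stress, including cold. ACC synthase turns S-adenosylmethionine into 1-aminocyclopropane-1-carboxylate (ACC), and ACC oxidase turns ACC into ethylene. Receptors in the endoplasmic reticulum, when free of ethylene, keep the kinase CTR1 active, which holds EIN2 in check. When ethylene binds, EIN2 relays the signal to the transcription factors EIN3 and EIL, which F-box proteins of the EBF group otherwise mark for breakdown. These roles are known mainly from Arabidopsis, and the names used here are similarities to proteins of that and other species.

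By description, the 57 genes held 6 ACC synthases, 5 ACC oxidases, 21 proteins called ACC oxidase homologs, 1 ACC deaminase, 3 receptors, 1 EIN2, 6 EIN3 or EIL factors, 2 EBF proteins and 1 EIN5 (the exoribonuclease XRN4). The other 11 were auxin genes, matched because an alternative name of their relative in another plant contains the words ethylene insensitive. They comprised 3 genes described as the auxin receptor TIR1, 4 auxin efflux carriers, 2 anthranilate synthase genes and 2 genes described as the tryptophan aminotransferase TAA1. The genes lay on all 8 linkage groups, with 26 of them on linkage group 2. Levels are in FPKM (fragments per kilobase of gene, divided by a size set for each library). As recovered from the values, that size was 1.04e+07 and 1.09e+07 in weak libraries 1 and 2. In the other libraries it was 1.94e+07 to 2.69e+07. It did not follow the number of reads in genes, given below, so the same number of reads gives a higher FPKM in weak libraries 1 and 2. Of the 57, 30 reached 1 FPKM in at least 3 of 6 libraries and were tested, 15 had 0 reads in every library, and 12 had some reads but did not pass this filter.

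The 6 libraries held 16367632 to 18866306 reads in genes. Weak library 3 stood apart from the other weak libraries: across tested genes its correlation with strong libraries 1, 2 and 3 was 0.918, 0.925 and 0.894, against 0.849 with weak library 1 and 0.861 with weak library 2. The 138 genes of a pollen list summed to between 12597 and 25974 FPKM in the strong libraries, and to 75958, 67659 and 23671 FPKM in weak libraries 1, 2 and 3. Pollen transcripts were thus present in flowers of both clones, and 24 of these genes were at 0 in all libraries. The 56 genes of a green tissue list summed to between 5758 and 6674 FPKM in the strong libraries and between 3924 and 4212 FPKM in the weak libraries, with 5 at 0 in all. Of 4 genes of a pistil list, which hold the S-RNases of self-incompatibility, the summed level lay between 0 and 0.164 FPKM in the strong libraries and between 4.05 and 6.75 FPKM in the weak libraries, with 1 at 0 in all. In such bulk samples, fewer cells of a type and less RNA per cell cannot be told apart. The pistil list rests on S-RNase genes alone, of which 1 was tested, so its level is not certain to measure pistil tissue.

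Of the 30 tested genes, 5 passed the test between the clones (16.7%), 3 higher and 2 lower in the strong clone. The test was limma on log2(FPKM + 1), with Benjamini-Hochberg adjustment over all 16462 tested genes and a threshold of 0.05. Of all tested genes, 15.3% passed, 7.53% higher and 7.78% lower in the strong clone, so the share among the ethylene genes was near this background. The 5 were 3 ACC oxidase homologs and 2 auxin receptor genes. None of the 14 tested genes of the pathway proper (ACC synthases, ACC oxidases, receptors, EIN2, EIN3 or EIL factors and EBF proteins) passed. In the same limma fit, 3 of these 14 had an unadjusted p below 0.05, and the smallest adjusted p was 0.0544. Over the 30 genes the median log2 difference, strong minus weak, was 0.09, against 0.05 over all tested genes, and over the 14 it was 0.02, with a range of -0.81 to 1.44. Strong and weak libraries were fully separate for 18 of the 30 genes and for 5 of the 14, against 45.4% of all tested genes. The median of all tested genes moved to 0.76 when every library was set to the same sum of FPKM, and 27 of the 30 genes kept their side of that median. The exceptions, PARG03645, PARG02216 and PARG08884, lay close to it under both scalings.

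These counts moved with every library left out, most of all with weak library 3. For 21 of the 30 genes its level lay between the mean of weak libraries 1 and 2 and the mean of the strong libraries. With that library left out, 19 of the 30 genes passed (11 higher and 8 lower in the strong clone), among them 7 of the 14, against 73.4% of all tested genes. With any other library left out, 0 or 1 of the 30 passed, against 1.01% to 3.71% of all tested genes. On log2(FPKM + 1), the mean level of the tested pollen list genes was 5.41, 5.78 and 5.07 in strong libraries 1, 2 and 3. In weak libraries 1, 2 and 3 it was 6.35, 6.22 and 5.79. This mean was thus itself higher in the weak clone, though strong library 2 and weak library 3 were nearly level. A fit with the mean level of the pollen list as a covariate rests on few libraries of like pollen level. It cannot reliably part pollen level from clone. In that fit 0 of the 30 passed, against 81 genes in all (0.492%).

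**Figure D1:**
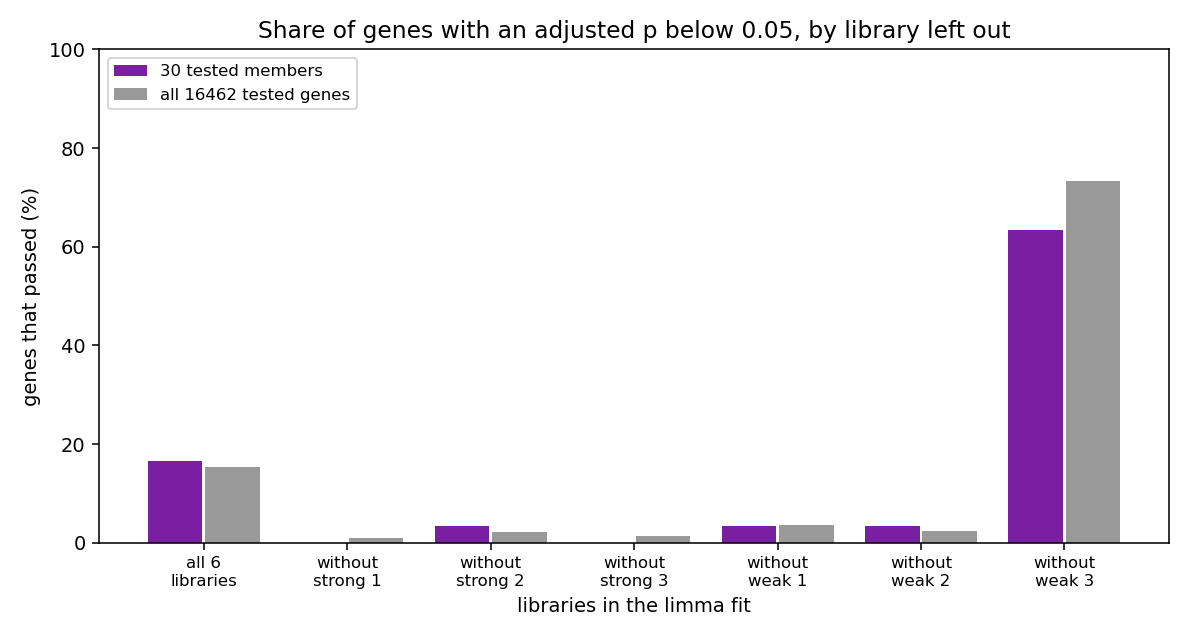
Share of genes with an adjusted p below 0.05 in the limma fit (y axis, percent) with all 6 libraries and with each library left out in turn (x axis). Purple bars stand for the 30 tested genes and grey bars for all 16462 tested genes: both are highest without weak library 3, at 63.3% and 73.4%.

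The first step of the pathway, ACC synthase, was represented by 3 tested genes, and none passed. PARG23885 (linkage group 7, 9884037 to 9886693) had 2.72, 1.37 and 4.49 FPKM in strong libraries 1, 2 and 3, against 0, 0.0471 and 1.30 FPKM in weak libraries 1, 2 and 3. All strong libraries lay above all weak ones, and the weak level came almost wholly from library 3, which held 53 of 54 weak reads, while the strong libraries together held 409 reads. The log2 difference of 1.44 ± 0.44 (SE) did not pass (limma, adjusted p = 0.0657), and was 1.83 without weak library 3 (limma, adjusted p = 0.00343). With the pollen list as a covariate the difference was 0.08.

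PARG18370 (linkage group 5, 18003283 to 18006121), described as ACS1, had 3.41, 3.13 and 6.12 FPKM in the strong libraries, against 5.82, 5.29 and 2.0 FPKM in the weak libraries. The clones overlapped, with strong library 3 and weak library 3 on opposite sides of the others, and the log2 difference was 0.00 (95% interval -0.94 to 0.94, limma adjusted p = 0.995). PARG27729 (linkage group 8, 18547904 to 18555649), described as ACS7, had 44.6, 39.6 and 43.2 FPKM in the strong libraries, against 62.7, 51.1 and 51.8 FPKM in the weak libraries. Its strong libraries lay below its weak ones, but the log2 difference of -0.37 ± 0.19 (SE) did not pass (limma, adjusted p = 0.159) and was 0.45 with equal sums of FPKM. This gene model also carries the domain of a mitochondrial ATP synthase subunit, so its level is not certain to be that of an ACC synthase. Summed over all 6 ACC synthase genes, the level was 50.3 ± 4.98 FPKM in the strong clone and 60.4 ± 6.99 FPKM in the weak clone, with no overlap (SD, n = 3 each, exact permutation test, two-sided, p = 0.1), and the log2 ratio of -0.26 was 0.54 with equal sums of FPKM. Without PARG27729 the sums overlapped, at 7.85 ± 3.18 FPKM in the strong clone and 5.24 ± 0.629 FPKM in the weak clone (SD, n = 3 each, exact permutation test, two-sided, p = 0.3, where 0.1 is the smallest p that 3 against 3 libraries allow).

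The last step, ACC oxidase, was carried by a single abundant gene. PARG13808 (linkage group 4, 6781276 to 6782954) had the highest level of all 57 genes, at 137, 152 and 152 FPKM in the strong libraries, against 174, 218 and 135 FPKM in the weak libraries. Weak library 3 was the lowest of all and weak library 2 the highest, so the clones overlapped. The log2 difference was -0.23 (95% interval -0.86 to 0.40, limma adjusted p = 0.488), and 0.60 with equal sums of FPKM. PARG12550 (linkage group 3, 24527648 to 24529302) was expressed at a far lower level, at 0.893, 3.66 and 1.84 FPKM in the strong libraries, against 0.490, 1.0 and 0.943 FPKM in the weak libraries. Strong library 1 lay within the weak range, and the log2 difference of 0.70 ± 0.35 (SE) did not pass (limma, adjusted p = 0.158). The remaining 3 ACC oxidase genes had 0 reads in every library.

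**Figure D2:**
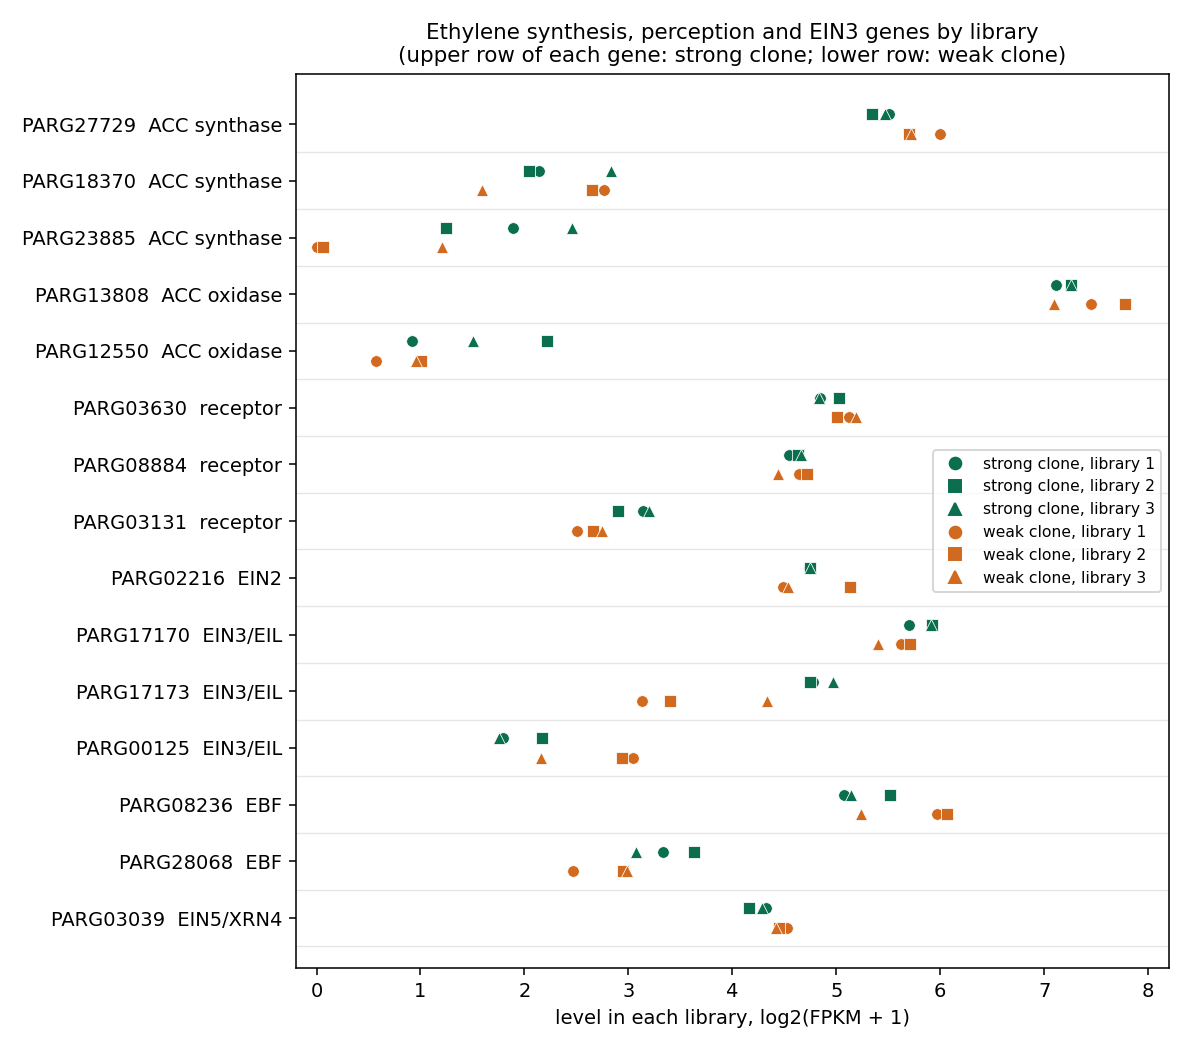
Level of each tested ACC synthase, ACC oxidase, receptor, EIN2, EIN3 or EIL, EBF and EIN5 gene in each library (x axis, log2(FPKM + 1)). Each gene has an upper line of green points for the strong clone and a lower line of orange points for the weak clone, with the shape giving the library. PARG13808 lies far right of the rest, and in PARG17173 and PARG23885 the triangle of weak library 3 is the weak point nearest the strong ones.

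All 3 receptor genes were expressed in both clones, and none passed the test. PARG08884 (linkage group 2, 40018552 to 40028836), described simply as an ethylene receptor, had 22.3, 23.9 and 24.3 FPKM in the strong libraries, against 23.9, 25.2 and 20.7 FPKM in the weak libraries. The clones overlapped, and the log2 difference was 0.02 (95% interval -0.40 to 0.43, limma adjusted p = 0.948). PARG03630 (linkage group 2, 2329845 to 2334428), described as EIN4, a receptor of the subfamily without a full set of histidine kinase motifs in Arabidopsis, had 27.6, 31.6 and 27.6 FPKM in the strong libraries, against 33.8, 31.1 and 35.5 FPKM in the weak libraries. Strong library 2 lay above weak library 2, and the log2 difference was -0.20 (95% interval -0.62 to 0.21, limma adjusted p = 0.358), against 0.60 with equal sums of FPKM.

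The other gene described as EIN4, PARG03131 (linkage group 1, 23216290 to 23219835), was less abundant, with 7.83, 6.47 and 8.16 FPKM in the strong libraries, against 4.70, 5.34 and 5.71 FPKM in the weak libraries. Here the clones did not overlap, but the log2 difference of 0.44 ± 0.19 (SE) did not pass (limma, adjusted p = 0.122), and it was 0.49 without weak library 3 (limma, adjusted p = 0.0287). Summed over the 3 receptors the level was 59.9 ± 2.08 FPKM in the strong clone and 62.0 ± 0.405 FPKM in the weak clone (SD, n = 3 each, exact permutation test, two-sided, p = 0.3), a log2 ratio of -0.05 that became 0.71 with equal sums of FPKM.

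EIN2, the membrane protein that carries the signal from the receptors to the nucleus, was a single gene, PARG02216 (linkage group 1, 17648812 to 17656149). It had 25.6, 25.9 and 25.9 FPKM in the strong libraries, against 21.4, 34.1 and 22.2 FPKM in the weak libraries. The strong libraries lay inside the weak range, and the log2 difference was 0.03 (95% interval -0.52 to 0.57, limma adjusted p = 0.931). The model lies within a longer model on the same strand, described as a histidine tRNA ligase, and reads of the overlapping models could not be told apart here.

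Downstream of EIN2, 3 of 6 EIN3 or EIL genes were tested, and their differences ran in both directions. PARG17173 (linkage group 5, 8512923 to 8516851) had 26.4, 25.8 and 30.3 FPKM in the strong libraries, against 7.75, 9.53 and 19.2 FPKM in the weak libraries. All strong libraries lay above all weak ones, and weak library 3 lay between the other weak libraries and the strong ones. The log2 difference of 1.21 ± 0.33 (SE) just missed the threshold (limma, adjusted p = 0.0544, unadjusted p = 0.00912), and was 1.57 without weak library 3 (limma, adjusted p = 0.000321) and 0.47 with the pollen list as a covariate (limma, adjusted p = 0.898).

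Its neighbour PARG17170 (linkage group 5, 8482766 to 8486578), 26.3 kb away, was the more abundant of the pair. It had 51.0, 59.5 and 59.1 FPKM in the strong libraries, against 48.3, 51.3 and 41.2 FPKM in the weak libraries. Strong library 1 lay just below weak library 2, and the log2 difference of 0.27 ± 0.19 (SE) did not pass (limma, adjusted p = 0.286). With equal sums of FPKM it passed, at 1.09 (limma, adjusted p = 0.0426), against a median of 0.76 over all genes under that scaling. Both genes are described as EIN3, and reads of the pair could have been split between them by the counting.

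PARG00125 (linkage group 1, 773368 to 788681), described as EIL3, a member that in Arabidopsis acts in sulfur deficiency, had 2.46, 3.48 and 2.37 FPKM in the strong libraries, against 7.23, 6.65 and 3.46 FPKM in the weak libraries. Strong library 2 lay just above weak library 3, and the log2 difference of -0.81 ± 0.30 (SE) did not pass (limma, adjusted p = 0.0874), while without weak library 3 it was -1.09 (limma, adjusted p = 0.00218). This model also carries amine oxidoreductase, AMP-binding and phosphopantetheine domains, so its level is not certain to be that of an EIL factor. Summed over all 6 EIN3 or EIL genes, the level was 86.9 ± 6.09 FPKM in the strong clone and 64.9 ± 2.30 FPKM in the weak clone (SD, n = 3 each). The sums did not overlap, at 80.1, 88.8 and 91.8 FPKM in the strong libraries and 63.3, 67.5 and 63.8 FPKM in the weak libraries, and the exact permutation test (two-sided) gave p = 0.1, the smallest it allows.

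The EBF genes, whose products mark EIN3 for breakdown, were both described as EBF2, and neither passed the test. PARG08236 (linkage group 2, 35207238 to 35211008) had 32.8, 44.8 and 34.2 FPKM in the strong libraries, against 61.6, 66.0 and 36.8 FPKM in the weak libraries. Weak library 3 fell within the strong range, and the log2 difference of -0.51 ± 0.28 (SE, limma adjusted p = 0.185) was -0.77 without that library (limma, adjusted p = 0.00744) and 0.30 with equal sums of FPKM. PARG28068 (linkage group 8, 20500161 to 20504372) had 9.11, 11.4 and 7.44 FPKM in the strong libraries, against 4.52, 6.70 and 6.92 FPKM in the weak libraries. Its clones did not overlap, and the log2 difference of 0.55 ± 0.25 (SE, limma adjusted p = 0.127) was 0.65 without weak library 3 (limma, adjusted p = 0.0402).

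EIN5, the exoribonuclease XRN4, which in Arabidopsis keeps EBF transcripts low, was PARG03039 (linkage group 1, 22748469 to 22758799), described here although the rule for named genes did not cover it. It had 19.0, 16.9 and 18.5 FPKM in the strong libraries, against 22.1, 20.8 and 20.3 FPKM in the weak libraries. The clones did not overlap, but the log2 difference of -0.21 ± 0.16 (SE) did not pass (limma, adjusted p = 0.327) and was 0.58 with equal sums of FPKM.

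The ACC oxidase homologs belong to the large family of oxygenases that use iron and, in most members, 2-oxoglutarate, to which ACC oxidase itself belongs, and their name does not show that they make ethylene. Of 21 such genes, 8 were tested, and 2 rose and 1 fell in the strong clone (37.5%), against 15.3% of all tested genes. All 3 lay in an array of 14 of these genes on linkage group 2, all on the plus strand within 109 kb (2408208 to 2517000), of which 5 were tested, 5 had 0 reads and 4 had reads below the filter. PARG03653 (2497900 to 2499758) had 21.1, 16.5 and 20.7 FPKM in the strong libraries, against 1.92, 2.64 and 4.97 FPKM in the weak libraries. All strong libraries stood far above the weak ones, by 6.12-fold in the means, and the log2 difference of 2.35 ± 0.30 (SE) passed (limma, adjusted p = 0.00925). It was the single member to pass also without strong library 2, without weak library 1 and without weak library 2.

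The gene just before PARG03653 along the array, PARG03652 (2495954 to 2497491), also rose. It had 10.7, 7.40 and 10.7 FPKM in the strong libraries, against 4.02, 2.37 and 3.90 FPKM in the weak libraries. The clones did not overlap, with means 2.80-fold apart, giving a log2 difference of 1.27 ± 0.26 (SE, limma adjusted p = 0.0284). At the near end of the array, PARG03641 (2408208 to 2410438) ran the other way, with 0.924, 1.77 and 1.16 FPKM in the strong libraries, against 14.3, 13.7 and 5.27 FPKM in the weak libraries. Weak library 3 was the lowest weak library and still above all strong ones, and the log2 difference of -2.31 ± 0.39 (SE) passed (limma, adjusted p = 0.0171). Neither PARG03652 nor PARG03641 passed when any single library other than weak library 3 was left out.

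The other 5 tested homologs had log2 differences between -0.92 and 0.48, with limma adjusted p-values from 0.0666 to 0.573. Summed over all 21 homologs the level was 77.0 ± 8.32 FPKM in the strong clone and 76.8 ± 15.1 FPKM in the weak clone (SD, n = 3 each, exact permutation test, two-sided, p = 1), so that the sum did not show the opposite moves within the array. A further 5 homologs lay within 32.5 kb on linkage group 6 (2382432 to 2414971), and 1 of these was tested. Neighbouring copies of this kind can share reads, and the way the counting divided such reads is not given in the sources used here.

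**Figure D3:**
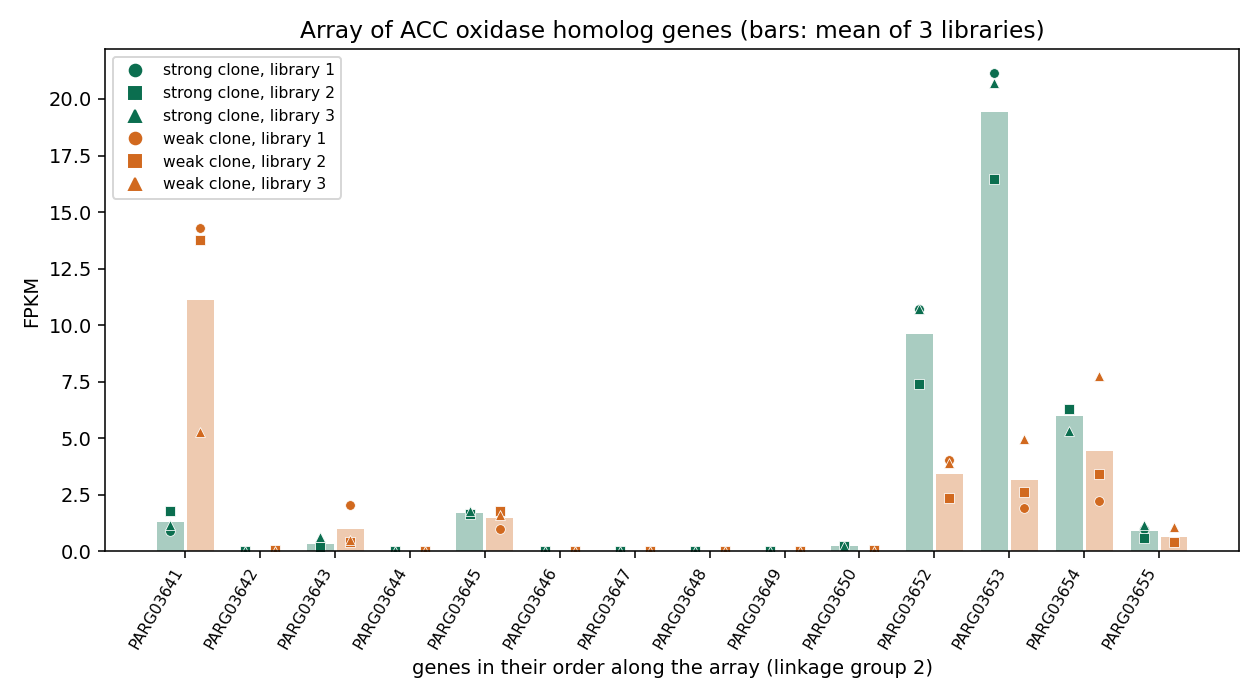
Level of each of the 14 ACC oxidase homologs in their order along the array on linkage group 2 (y axis, FPKM). Green bars and points show the mean and the libraries of the strong clone, and orange ones to their right those of the weak clone. PARG03641, at the left end, is higher in the weak clone, whereas PARG03652 and PARG03653 are higher in the strong clone.

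Of the 11 auxin genes matched by an alternative name, 7 were tested, and 1 rose and 1 fell in the strong clone (28.6%). Of all tested genes, 15.3% passed. Both auxin genes that passed were described as TIR1, an F-box receptor of auxin. PARG19981 (linkage group 6, 882730 to 885924) had 49.4, 44.1 and 60.6 FPKM in the strong libraries, against 23.1, 23.3 and 29.0 FPKM in the weak libraries. The clones did not overlap, with means 2.05-fold apart, and the log2 difference of 1.0 ± 0.21 (SE) passed (limma, adjusted p = 0.0296). PARG12330 (linkage group 3, 23291833 to 23294027) had 5.40, 4.85 and 5.60 FPKM in the strong libraries, against 11.4, 10.6 and 10.6 FPKM in the weak libraries. Weak library 3 was level with weak library 2, and the log2 difference of -0.92 ± 0.18 (SE) passed (limma, adjusted p = 0.0241).

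That call depended on the scaling, as the difference of PARG12330 was -0.19 once each library was set to the same sum of FPKM (limma, adjusted p = 0.649). The table lists no protein domain for this gene. The other 5 auxin genes had log2 differences between -1.51 and 0.82 and limma adjusted p-values from 0.0547 to 0.164, and for all 7 the strong libraries were fully separate from the weak ones, as for 45.4% of all tested genes.

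**Figure D4:**
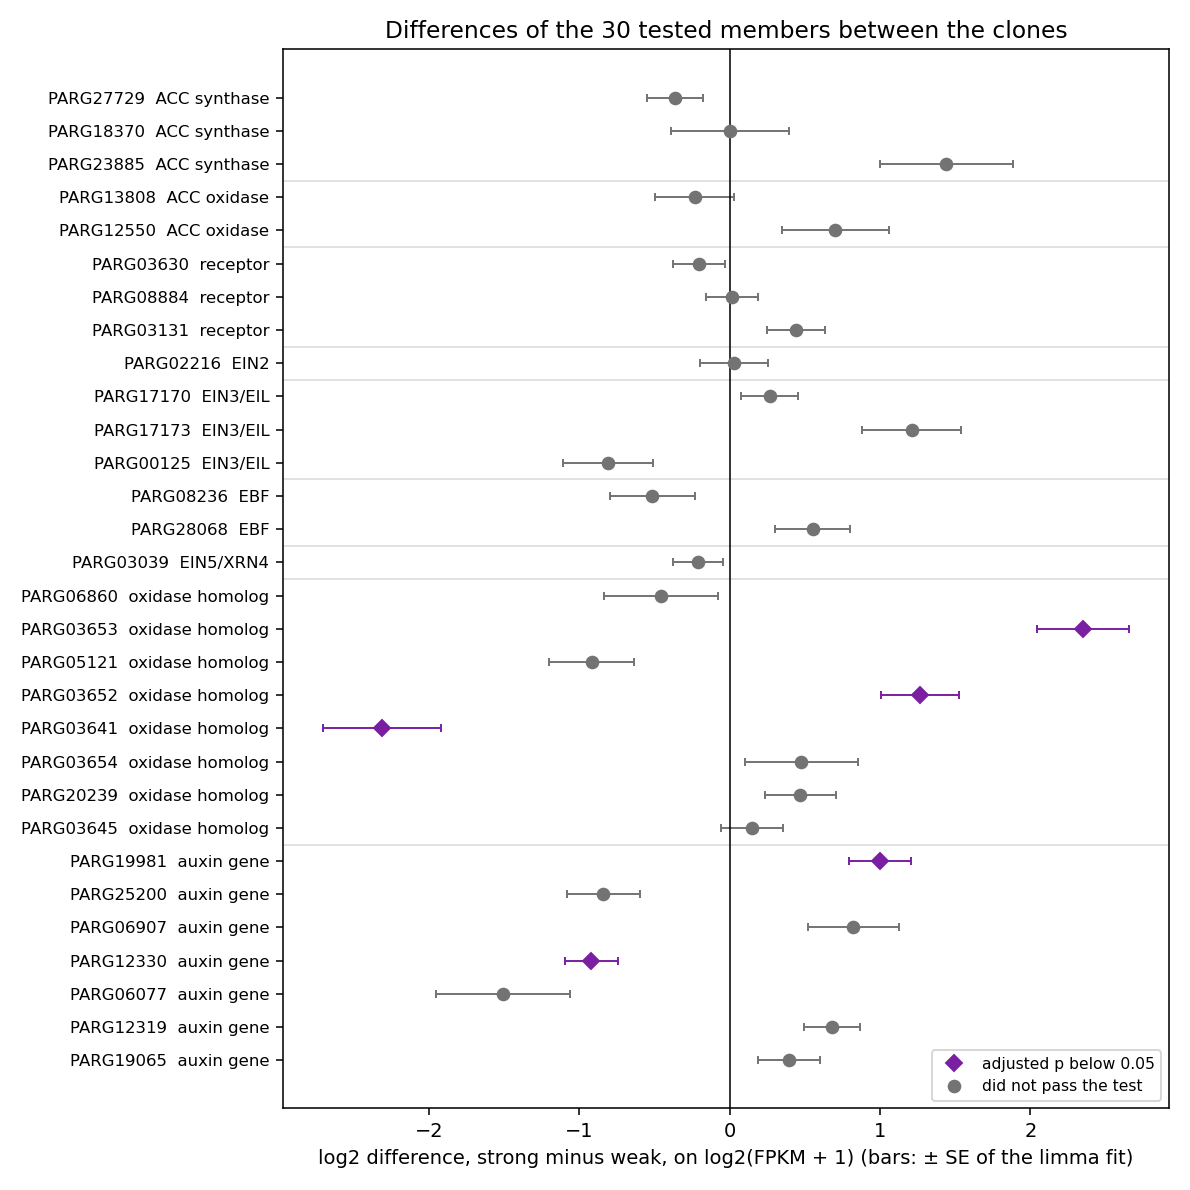
Log2 difference, strong minus weak, of each of the 30 tested genes on log2(FPKM + 1) (x axis), grouped by role down the page. Bars show ± SE of the limma fit, purple diamonds the 5 genes that passed and grey circles the others. The diamonds are 3 ACC oxidase homologs, from -2.31 to 2.35, and 2 genes described as TIR1.

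Other genes of the pathway, listed by description, were counted beside these. In the methionine and S-adenosylmethionine cycle, which supplies the substrate of ACC synthase and recycles its by-product, 14 genes were tested, 1 rose and 4 fell in the strong clone (35.7%), against 15.3% of all tested genes. The median log2 difference of the list was 0.06, against 0.05 over all tested genes. PARG27966, a methylthioribose kinase of the recycling branch, had 4.8, 3.81 and 4.49 FPKM in the strong libraries, against 0.0473, 0.362 and 1.25 FPKM in the weak libraries. It was the gene that rose, by a log2 difference of 1.86 ± 0.31 (SE, limma adjusted p = 0.0167), and its clones did not overlap.

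Both S-adenosylmethionine synthases that passed fell in the strong clone. PARG26873 had 44.7, 69.3 and 36.4 FPKM in the strong libraries, against 241, 224 and 87.7 FPKM in the weak libraries, a log2 difference of -1.78 ± 0.46 (SE, limma adjusted p = 0.0482). PARG04363 had 76.0, 73.6 and 90.4 FPKM in the strong libraries, against 146, 164 and 145 FPKM in the weak libraries, a log2 difference of -0.92 ± 0.21 (SE, limma adjusted p = 0.0369). Neither gene had overlapping libraries, and in PARG26873 weak library 3 was the weak library nearest the strong ones. With sums of FPKM made equal, PARG26873 had a difference of -0.95 (limma, adjusted p = 0.0424) and PARG04363 one of -0.09 (limma, adjusted p = 0.815).

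By their descriptions, the other pair that fell acts in the recycling of methylthioadenosine. PARG07922, a nucleosidase, had 36.7, 53.2 and 31.5 FPKM in the strong libraries, against 185, 148 and 76.4 FPKM in the weak libraries, a log2 difference of -1.67 ± 0.38 (SE, limma adjusted p = 0.0379). PARG03485, an acireductone dioxygenase, had 14.5, 16.5 and 13.5 FPKM in the strong libraries, against 41.9, 34.4 and 22.9 FPKM in the weak libraries, a log2 difference of -1.07 ± 0.26 (SE, limma adjusted p = 0.0420) that was -0.27 with equal sums of FPKM (limma, adjusted p = 0.279). In both, weak library 3 was the lowest weak library and lay above every strong one. The pollen list likewise had its lowest weak sum in that library. The part of pollen RNA in these differences was not tested.

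Among 13 tested regulators, a list that included kinases with a CTR1-like domain, 0 rose and 1 fell (7.69%), against 15.3% of all tested genes. Of 3 tested genes described as CTR1, the kinase that holds back the pathway, the longer 2 did not pass. PARG29590, with a length of 2748 bases, had 11.4, 10.9 and 10.8 FPKM in the strong libraries, against 15.6, 16.9 and 12.2 FPKM in the weak libraries, a log2 difference of -0.39 ± 0.19 (SE) in limma (adjusted p = 0.151) that was 0.38 with equal sums of FPKM. PARG08711, with a length of 3877 bases, had 5.53, 6.57 and 5.68 FPKM in the strong libraries, against 7.07, 7.44 and 2.32 FPKM in the weak libraries, a log2 difference of 0.18 ± 0.39 (SE) in limma (adjusted p = 0.716). The strong libraries were separate from the weak ones in PARG29590 and overlapped them in PARG08711. The gene that fell, PARG23761, is a short model of 504 bases. It had 1.05, 0.816 and 0.517 FPKM in the strong libraries, against 13.8, 10.2 and 2.48 FPKM in the weak libraries. The clones did not overlap, weak library 3 again lay nearest the strong ones, and the test passed at a log2 difference of -2.23 ± 0.54 (SE, limma adjusted p = 0.0421), from 27 reads in the strong libraries and 154 in the weak libraries. A list for the handling of the cyanide that ACC oxidase releases held 2 genes, both described as nitrilases with cyanoalanine in their names. Neither passed in limma, with 1 at an unadjusted p below 0.05 and a smallest adjusted p of 0.104. A last list held genes described as ethylene-responsive transcription factors, a name that does not show that they respond to ethylene. Of 58 such genes tested, 17 rose and 3 fell (34.5%), against 15.3% of all tested genes, 7.53% higher and 7.78% lower. Their median log2 difference was 0.86, against 0.05 over all tested genes. Whether ethylene has a part in these differences was not tested.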

How the data were processed

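RNA sequencing of frosted flowers gave 3 libraries of each clone. The authors deposited FPKM values per gene, and the tools were CASAVA, RSEM and Bowtie2 per the submitters' processing notes. The sources used here do not give versions, genome build or strandedness, and coordinates are those of the deposited table. All value columns matched a sample by name. Multiplied by gene length, 100% of positive FPKM values were whole multiples of 1 step within 0.01 read, which gave the reads per gene. For 1 kilobase, 1 read was worth 0.0372 to 0.0965 FPKM. The deposited scaling left sums of FPKM between 464129 and 591204 (strong libraries), against 1217398, 1106483 and 580337 (weak libraries 1, 2 and 3).

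Genes that reached 1 FPKM in 3 or more of the 6 libraries were tested on log2(FPKM + 1) with limma 3.58.1 (R 4.3.3, eBayes with trend, two-sided, Benjamini-Hochberg over all genes), which understates changes of low genes. The script was tested on simulated data. Sums of a gene class were compared by exact permutation tests. Reads of libraries of the same clone differed beyond counting error, and each library was counted. Named with values were genes that passed, and every other ACC synthase, ACC oxidase, receptor, EIN2, EIN3 or EIL and EBF gene with a mean of at least 1 FPKM in either clone. The genes and lists were chosen with earlier results of these data known. Pollen, green tissue and pistil lists were fixed by words in the descriptions: of their tested genes, 1 of 80, 18 of 46 and 0 of 1 were higher and 8, 3 and 1 lower in the strong clone. Alternatives were a pseudocount of 0.1 FPKM, no filter, equal sums, a replicate block, no trend, each library left out, and the pollen list as a covariate.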

Additional observations from a re-analysis of the deposited data

How the results depend on the processing

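Among tested genes, 3 rose and 2 fell in the strong clone. A pseudocount of 0.1 FPKM and no trend each gave 3 and 2, where 11.5% and 14.2% of all tested genes passed. No filter gave 4 and 2 over a wider set of genes, where 9.85% of 23785 genes passed. The gene gained there came from those below the filter. Equal sums of FPKM gave 5 and 1, the replicate block 5 and 5, and the pollen list as a covariate 0 and 0, where 14.1%, 39.1% and 0.492% of all tested genes passed, against 15.3% in the fit reported. Leaving out 1 library gave 0 to 11 higher and 0 to 8 lower, both highest without weak library 3, where 73.4% of all tested genes passed, against 1.01% to 3.71% without any other library. The cause of these shifts was not tested.

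Log2 differences changed sign with equal sums of FPKM for PARG13808 (0.60), PARG06860 (0.35), PARG27729 (0.45), PARG08236 (0.30), PARG03039 (0.58) and PARG03630 (0.60), and so did the log2 ratios of summed levels of ACC synthase (0.54), ACC oxidase (0.59), receptors (0.71) and EBF genes (0.46). That scaling itself moved the median of all genes to 0.76. With the pollen list as a covariate, sign changed for PARG13808 (0.017), PARG03645 (-0.021), PARG03654 (-0.11), PARG06860 (0.59) and PARG08236 (0.12). With 1 library left out, PARG18370 ranged from -0.37 to 0.22, PARG02216 from -0.090 to 0.23, PARG08884 from -0.065 to 0.073 and the summed ACC oxidase homologs from -0.14 to 0.14.

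The replicate numbers were not found to pair the libraries: deviations of same-numbered libraries from their clone means correlated at -0.24, 0.59 and 0.61 for numbers 1, 2 and 3, and strong library 1 correlated best with weak library 3. With the replicate block, 6439 of all tested genes passed, against 2520 without it. The 12 ethylene genes with reads below the filter entered only the fit without a filter. The deepest held 108 reads over 6 libraries, and differences at this depth are not reported here.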

Other observations

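Among genes below the filter, chosen for mention after their values were seen, 2 further ACC synthases had reads in every strong library but in the weak clone only in library 3. PARG02020 had 16, 9 and 16 reads in strong libraries 1, 2 and 3, against 0, 0 and 34 reads in weak libraries 1, 2 and 3. Over 1822 bases PARG02020 overlaps a model on the same strand, described as a tubulin alpha chain, and reads of the overlapping models could not be told apart here. PARG07637 had 6, 13 and 14 reads in the strong libraries, against 0, 0 and 3 reads in the weak libraries. PARG23885, the tested ACC synthase that was separate and higher in the strong clone, also had its weak reads almost wholly in library 3. Both low genes entered only the fit without a filter, and their results in that fit are not given here.

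A receptor that the rule for the genes did not match, PARG19854, described as ERS1, was looked up after the other receptors. It had 21.9, 18.9 and 22.5 FPKM in the strong libraries, against 21.4, 24.0 and 24.8 FPKM in the weak libraries. The clones overlapped, and the log2 difference of -0.14 ± 0.17 (SE) did not pass (limma, adjusted p = 0.520).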
